A study of Mus musculus with 18 samples.

Results

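The *Slc2a* genes encode the facilitative hexose transporters of the cell membrane, and 10 of them, *Slc2a1*, *Slc2a3*, *Slc2a4*, *Slc2a5*, *Slc2a6*, *Slc2a8*, *Slc2a9*, *Slc2a10*, *Slc2a12* and *Slc2a13*, were followed here among the 55453 gene symbols of each count table. They were found by symbol and compared, mutant against wild type, within each of 2 experiments on mouse aorta. The family was chosen by a readout of these same data, because *Slc2a5* was already known to differ between genotypes in the HDR experiment. Its HDR values are therefore given as a description with no p-value, and so are those of the other members in that experiment. The standard errors given with them were derived from a test statistic, as described under the processing. P-values for genotype on members were confined to the PE2 experiment, whose mice were not part of that HDR difference. Relations with markers were tested on the spread between libraries within groups.

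Facilitative transporters move sugars down their gradient and differ in substrate, in location and in the cells that use them. *Slc2a1* serves basal glucose uptake in most cells, *Slc2a3* is the high-affinity glucose carrier of neurons and leukocytes, and *Slc2a4* is the carrier that insulin brings to the surface of muscle and fat cells. *Slc2a5* carries fructose and is best known from intestine, kidney, testis and fat. *Slc2a6* and *Slc2a8* work mainly inside cells, *Slc2a9* carries urate, *Slc2a12* carries glucose and urate, and *Slc2a13* is a proton-coupled inositol carrier. *Slc2a10* is of particular interest in arteries, because its loss in people causes arterial tortuosity syndrome.

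Per the methods, each library held the polyadenylated RNA of a single aorta cleaned of its surrounding tissue, though markers of fat remained, as given below. HDR denotes mice in which Cas9 cutting and repair from a single-stranded donor oligo replaced adjacent bases of the CArG box of *Tspan2* in the germline (*Tspan2* sg/sg). PE2 denotes mice in which prime editor 2, a Cas9 nickase joined to a reverse transcriptase, changed a C to a G in that box (*Tspan2* peg/peg). The HDR experiment compared 5 wild-type with 5 sg/sg aortae at 12 weeks on a strain labelled C57BL/6, with both sexes in each genotype, and its columns carry no sex. The PE2 experiment compared 4 wild-type with 4 peg/peg aortae at 8 weeks on a strain labelled FVB/N/B6(Cg)-Tyrc-2J/J, and all of these mice were female except wild-type replicate 4. Per the methods, the founders of both edits came from crosses of FVB/NJ and B6(Cg)-Tyr2J/J mice, and selected founders were bred to C57BL/6J. The methods thus give the same strains for both experiments, whereas the labels give different ones. Age, the make-up by sex and, by the labels alone, strain differ between the experiments as well as the edit. No level was tested between the experiments, whose tables were normalized separately. The order of members per length, given below, averages over both.

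A CArG box is the site bound by serum response factor. The spacer of the HDR guide, whose protospacer the prime editor also used, is shown because it places the box. The capitals mark the stretch of the CArG box that lies in the spacer, and the remainder of the box lies beyond its end. Both edits, which are named by the opposite strand, lie in that remainder and not among the bases shown.
Guide RNA spacer: uagaggacuguuaCCUUAAU
Of the 10 members, 8 had a promoter window in RefSeq on GRCm38.p6, from 250 bases before to 50 bases after the gene start, and those of *Slc2a3* and *Slc2a4* were not used here. None of the 8 windows held a match to the consensus CArG box on either strand, a pattern found in 535 of all 32851 windows (1.63%). The absence says only that these letters are not in the windows. The paper places the box of human *TSPAN2* farther before its main start than these windows reach, so a box at such a distance would be missed. The stretch before the annotated start of *Slc2a5* is shown because *Slc2a5* carries the main result below. It lies on the plus strand at chr4:150119094-150119282, has 189 bases and has no capitals because it held no match.
*Slc2a5* upstream: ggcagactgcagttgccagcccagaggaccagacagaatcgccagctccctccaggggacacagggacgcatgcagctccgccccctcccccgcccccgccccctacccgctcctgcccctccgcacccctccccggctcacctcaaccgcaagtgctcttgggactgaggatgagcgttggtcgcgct
The gene itself spans chr4:150119283-150144169 on the plus strand (ENSMUSG00000028976) and overlaps no other annotated gene. Its neighbour *Slc2a7*, another sugar transporter of the family, begins 4802 bases beyond its end.

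HDR libraries held between 17290992 and 24880385 counts and PE2 libraries between 38820265 and 44895615. *Tspan2*, the edited gene, averaged 208.9 ± 60.1 CPM (library-size-scaled counts after TMM normalization, SD, n = 5) in HDR wild type and 24.9 ± 8.12 CPM in sg/sg aortae, and 218.2 ± 45.0 CPM (n = 4) in PE2 wild type and 19.96 ± 6.74 CPM in peg/peg aortae, with no overlap of the groups in either experiment. By edgeR's quasi-likelihood test, with p-values adjusted after Benjamini and Hochberg, 1 gene was called in each experiment, *Tspan2*, which is 0.00609% of the 16423 genes tested in HDR and 0.0061% of the 16401 tested in PE2 aortae. Smooth muscle markers dominated all libraries, with a summed level of 15982 to 58080 CPM over 8 genes led by *Myh11* and *Acta2*. Markers of the fat around the vessel were also present. The library of peg/peg replicate 3 stood apart: its 10 skeletal muscle markers summed to 1204 CPM against 10.98 to 27.1 CPM in the other PE2 libraries, and its 8 adipocyte markers to 209.5 CPM against 1417 to 4344 CPM. Most of that muscle sum was *Acta1* (756 CPM) and *Ckm* (300 CPM), with *Myh2* at 57.1 CPM. Not all of the list rose. *Myh1*, *Mylpf* and *Atp2a1* reached at most 1.34, 2.06 and 1.15 CPM in peg/peg aortae, below their highest PE2 wild-type values, and *Myh4* at most 0.988 CPM. Results that rest on replicate 3 are given with and without it. In bulk RNA, fewer cells of a type and less RNA per cell cannot be told apart.

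*Slc2a5*, the fructose carrier, was 10.4-fold lower in mean level in sg/sg than in wild-type HDR aortae, while the PE2 groups overlapped. In the HDR wild type its level was 1.71, 1.23, 1.68, 5.13 and 12.6 CPM in WT_2 to WT_6. In the sg/sg aortae it was 0.491, 0.193, 0.905, 0.187 and 0.372 CPM in Mut_2 to Mut_6. All 5 mutant libraries lay below the lowest wild-type library, and WT_6 alone held 56.4% of the wild-type sum. The mean fell from 4.47 ± 4.81 to 0.430 ± 0.295 CPM (SD, n = 5), a log2 fold change of -3.39 with a standard error of 0.73. The medians, 1.71 and 0.372 CPM, differed 4.59-fold. Without WT_6 the log2 fold change was -2.51, and with Mut_4 left out it was -3.84, the range over all libraries left out in turn. These are shallow values, since *Slc2a5* had 26 to 298 reads in a wild-type and 4 to 16 reads in an sg/sg library.

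In the PE2 experiment *Slc2a5* was at 3.98, 12.97, 3.16 and 8.04 CPM in wild-type replicates 1 to 4. In peg/peg replicates 1 to 4 it was at 2.04, 19.9, 0.132 and 10.97 CPM. The peg/peg libraries held both the highest and the lowest value of the experiment, and the lowest came from replicate 3, the library with few adipocyte markers. The wild-type mean was 7.04 ± 4.498 CPM and the peg/peg mean 8.26 ± 9.08 CPM (SD, n = 4), a difference of 1.22 CPM with p = 0.886 in an exact two-sided permutation test, which cannot go below 0.0286 with 4 libraries against 4. The log2 fold change was 0.23 with a standard error of 1.11 (adjusted p = 0.966 by edgeR). Its approximate 95% interval, 1.96 standard errors to each side, reached from -1.94 to 2.40. This normal multiple is too narrow for 4 libraries against 4. The sign of this estimate rested on single libraries: the difference was -2.66 CPM without peg/peg replicate 2 and 3.93 CPM without peg/peg replicate 3. Whether the genotype differences of the HDR and PE2 experiments differ from each other was not tested.

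**Figure D1:**
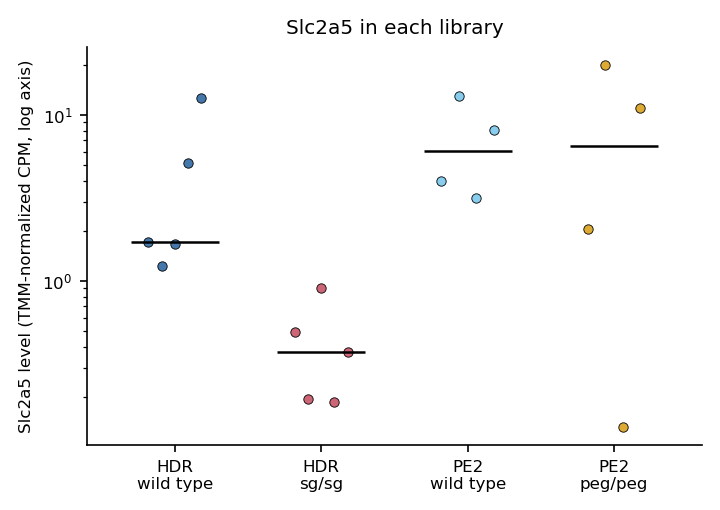
Level of *Slc2a5* in TMM-normalized CPM (vertical log axis) in each library, with the 4 groups on the horizontal axis and a bar at each group's median. The 5 sg/sg libraries lie between 0.187 and 0.905 CPM, below all 5 HDR wild-type libraries, whereas the peg/peg libraries reach from 0.132 to 19.9 CPM around the PE2 wild type.

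The other members showed no such separation. *Slc2a5* was the only one of the 9 members tested in the HDR experiment whose mutant libraries all lay below the wild type, a pattern held by 0.195% of all genes tested there. No member had all mutant libraries above the wild type, which 0.122% of genes did. DESeq2's Wald test called 0.00933% of all genes in the HDR experiment. Its calls among members there are not given, because that contrast chose the family. In the PE2 experiment, whose mice were not part of that contrast, edgeR and DESeq2 each called 0 of the 10 members (DESeq2 called 0.189% of all genes). Of the members, 0 reached an unadjusted p under 0.05 in either test. Complete separation was also absent among members there, against 1.1% of all genes with every mutant library lower and 1.43% with every mutant library higher. The tested members had a median log2 fold change of -0.30 (HDR) and 0.09 (PE2), beside 0.0030 and 0.013 over all genes tested.

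**Figure D2:**
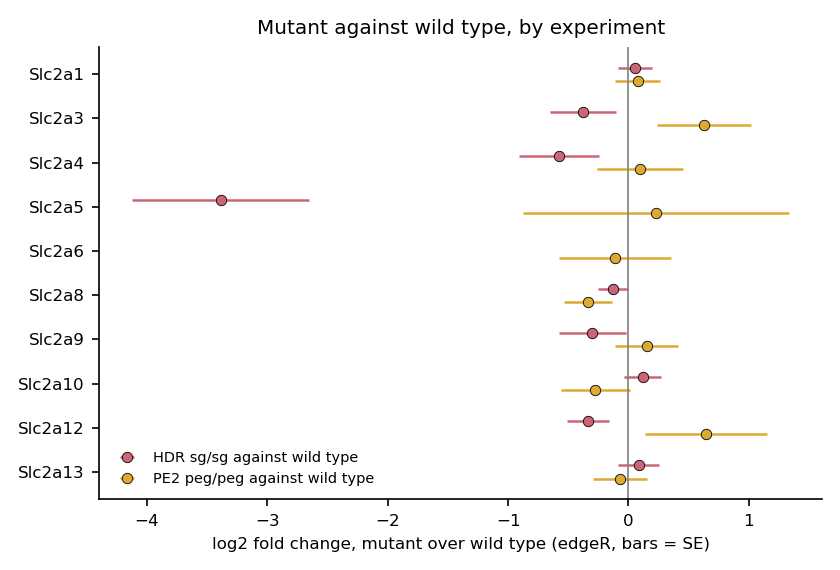
Log2 fold change of each member, mutant over wild type, on the horizontal axis, with bars of 1 standard error, for the HDR and the PE2 experiment. *Slc2a5* in the HDR experiment stands at -3.39 and all other points lie between -0.58 and 0.64. *Slc2a6* has no HDR point because its HDR counts were too low to be tested.

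*Slc2a4*, the insulin-responsive glucose carrier, had the highest level of the family. In the HDR wild type it was at 65.4, 57.6, 48.7, 75.5 and 124.7 CPM in WT_2 to WT_6, and in the sg/sg aortae at 49.3, 57.9, 85.5, 28.9 and 27.7 CPM in Mut_2 to Mut_6. The groups overlapped, with 2 of 5 mutant libraries below the lowest wild-type library, and the log2 fold change was -0.58 ± 0.33 (SE). Its PE2 levels were 97.9, 114.4, 59.2 and 91.0 CPM in wild-type and 41.5, 116.1, 139.4 and 90.4 CPM in peg/peg replicates 1 to 4. The highest value belonged to peg/peg replicate 3, the library with high *Acta1* and *Ckm*, and the part of muscle tissue in it was not tested. The log2 fold change was 0.10 ± 0.36 (SE, adjusted p = 0.957 by edgeR), and -0.14 without that library.

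*Slc2a1*, the basal glucose carrier, was among the steadiest members. It ranged from 25.4 to 31.5 CPM in HDR wild type and from 22.2 to 35.4 CPM in sg/sg aortae, and its log2 fold change was 0.05 ± 0.14 (SE). Among PE2 libraries it ranged from 29.1 to 47.7 CPM in wild-type and from 36.1 to 46.8 CPM in peg/peg aortae. The log2 fold change was 0.08 ± 0.18 (adjusted p = 0.936 by edgeR), with an approximate 95% interval, likewise too narrow, from -0.28 to 0.43. *Slc2a1* overlaps 2 antisense genes, and the strand setting of the counting is not stated, so reads from the opposite strand could have entered its count.

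*Slc2a3*, the leukocyte and neuronal glucose carrier, was at 2.56, 7.28, 3.31, 6.65 and 4.10 CPM in WT_2 to WT_6 and between 3.39 and 3.83 CPM in all 5 sg/sg libraries. The mutant libraries lay inside the wild-type range, and their SD of 0.170 CPM was smaller than the 2.08 CPM of the wild type. Its PE2 levels were 2.22, 3.96, 4.79 and 5.79 CPM in wild-type and 10.1, 6.62, 5.84 and 3.34 CPM in peg/peg replicates 1 to 4, so that 3 of 4 mutant libraries lay above the highest wild-type library. The log2 fold change of 0.63 ± 0.39 did not pass the test (adjusted p = 0.861 by edgeR), and it was 0.32 without peg/peg replicate 1. A processed pseudogene lies within the *Slc2a3* locus on the same strand, which makes its count less certain.

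*Slc2a10*, the gene of arterial tortuosity syndrome, averaged 15.5 ± 2.12 CPM in HDR wild type and 16.8 ± 3.47 CPM in sg/sg aortae (SD, n = 5), a log2 fold change of 0.12 ± 0.15 (SE). In PE2 aortae it was at 23.8, 36.9, 38.4 and 29.3 CPM in wild-type and at 31.5, 27.2, 13.5 and 34.0 CPM in peg/peg replicates 1 to 4. The low value again belonged to replicate 3, and the other 3 mutant libraries lay inside the wild-type range. The log2 fold change was -0.27 ± 0.29 (adjusted p = 0.871 by edgeR), and -0.06 without replicate 3.

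*Slc2a12*, a carrier of glucose and urate, ran the other way in that library. It was at 2.27, 2.83, 5.65 and 3.26 CPM in PE2 wild-type and at 2.47, 3.82, 11.3 and 4.27 CPM in peg/peg replicates 1 to 4, and 51.8% of the mutant sum came from replicate 3. The log2 fold change of 0.64 ± 0.51 (adjusted p = 0.861 by edgeR) was -0.0041 without it. In the HDR experiment *Slc2a12* was at 4.32, 4.63, 3.88, 3.84 and 4.61 CPM in WT_2 to WT_6 and at 3.33, 3.62, 4.13, 3.37 and 2.45 CPM in Mut_2 to Mut_6. There 4 of 5 mutant libraries lay below the lowest wild-type library, and the log2 fold change was -0.33 ± 0.18 (SE). *Tbpl1* overlaps *Slc2a12* on the opposite strand.

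*Slc2a9*, the urate carrier, ranged from 2.03 to 3.07 CPM in HDR wild type and from 0.958 to 3.11 CPM in sg/sg aortae. It ranged from 1.99 to 2.14 CPM in PE2 wild type and from 1.70 to 3.32 CPM in peg/peg aortae, with its highest PE2 value also in replicate 3. Its log2 fold changes were -0.30 ± 0.28 and 0.15 ± 0.26 (SE), and the second was -0.08 without replicate 3.

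*Slc2a8* and *Slc2a6*, the intracellular members, differed in abundance. *Slc2a8* averaged 9.67 ± 1.22 and 8.85 ± 0.734 CPM in HDR wild-type and sg/sg aortae, and 16.7 ± 2.28 and 13.2 ± 3.23 CPM in PE2 wild-type and peg/peg aortae, with log2 fold changes of -0.13 ± 0.13 and -0.34 ± 0.20 (SE, adjusted p = 0.861 in PE2 by edgeR). *Slc2a6* was near the limit of detection, with 44 reads over the 5 HDR wild-type and 38 over the 5 sg/sg libraries, and it failed the filter there. Among PE2 libraries it ranged from 0.526 to 1.43 CPM in wild-type and from 0.365 to 1.22 CPM in peg/peg aortae.

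*Slc2a13*, the inositol carrier, averaged 27.3 ± 4.96 and 29.0 ± 6.18 CPM in HDR wild-type and sg/sg aortae, and 17.98 ± 3.13 and 17.1 ± 4.59 CPM in PE2 wild-type and peg/peg aortae. Its log2 fold changes were 0.08 ± 0.17 and -0.07 ± 0.22 (SE). The remaining genes of the family in the tables are *Slc2a2*, the glucose carrier of liver and pancreatic islets, and *Slc2a7*. They were close to absent, with at most 12 reads of *Slc2a2* and 3 of *Slc2a7* in any library, and neither was tested.

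**Figure D3:**
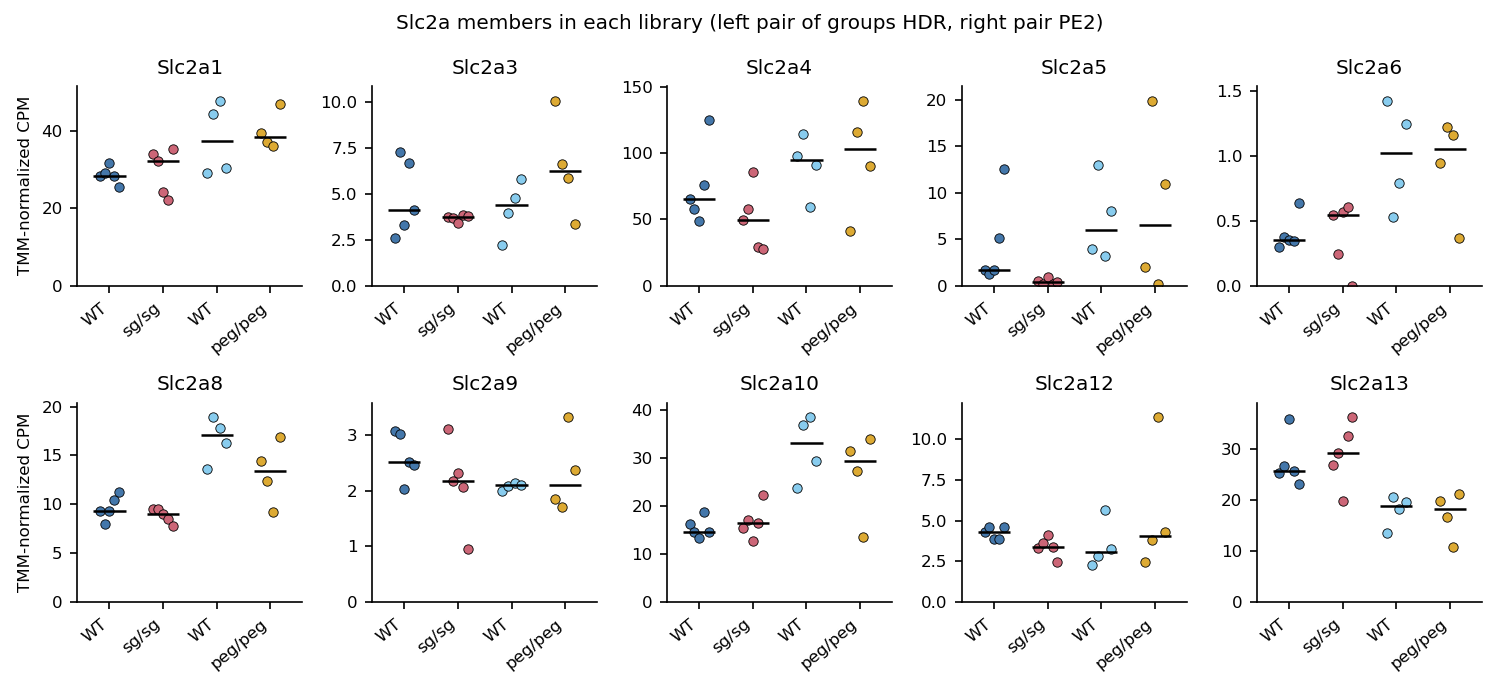
TMM-normalized CPM (vertical axis, from 0, on a separate scale in each panel) of the 10 members in every library, with a bar at each group's median. The HDR groups separate for *Slc2a5*, with 0.187 to 0.905 CPM in sg/sg against 1.23 to 12.6 CPM in the wild type. A single peg/peg library, replicate 3, gives the highest *Slc2a4* (139.4 CPM) and *Slc2a12* (11.3 CPM) and the lowest *Slc2a10* (13.5 CPM) of the PE2 experiment.

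Levels of different members were compared per length, as CPM per kilobase of the gene's merged exons in Gencode M21. Over all 18 libraries *Slc2a4* led at 21.9 CPM per kilobase and made up 45.9% of the family's sum, followed by *Slc2a1* at 9.52 and *Slc2a10* at 6.16. *Slc2a8* followed at 3.67, *Slc2a13* at 2.80 and *Slc2a5* at 1.399 CPM per kilobase. *Slc2a12*, *Slc2a3*, *Slc2a9* and *Slc2a6* closed the order at 0.971, 0.651, 0.451 and 0.202 CPM per kilobase. This order pools the experiments, and *Slc2a8* and *Slc2a13* changed places between them. The mean of *Slc2a13* was above that of *Slc2a8* in HDR wild type (3.27 and 3.01 CPM per kilobase) and below it in PE2 wild type (2.15 and 5.20 CPM per kilobase).

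Few neighbours in this order were separated by more than their spread. In the HDR wild type, *Slc2a4* (14.0 to 35.9 CPM per kilobase) lay above *Slc2a1* (7.25 to 8.99), and *Slc2a1* above *Slc2a10* (3.72 to 5.26), in all libraries, whereas the ranges of *Slc2a10*, *Slc2a13* and *Slc2a8* overlapped in turn. In the PE2 wild type, *Slc2a4* again lay above *Slc2a1*, the ranges of *Slc2a1* and *Slc2a10* overlapped, and *Slc2a10* (6.66 to 10.8) lay above *Slc2a8* (4.26 to 5.89). *Slc2a5* held rank 6 in both wild types, rank 9 in sg/sg aortae at 0.126 CPM per kilobase, and rank 5 in peg/peg aortae at 2.43 CPM per kilobase, and by the length of the longest transcript it held ranks 10 and 6 in the mutants. Its range overlapped that of its neighbours in the order on both sides in all 4 groups.

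**Figure D4:**
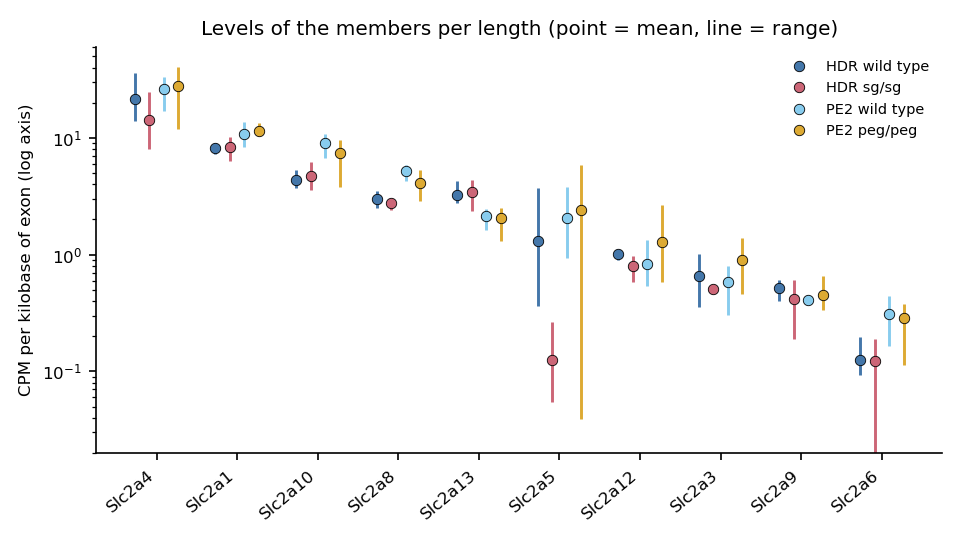
Level per length of the 10 members in CPM per kilobase of merged exon (vertical log axis), ordered by the mean over 18 libraries, with a point at each group's mean and a line over its range. The order runs from *Slc2a4* at 21.9 to *Slc2a6* at 0.202 CPM per kilobase. *Slc2a5* reaches from 0.039 to 5.85 CPM per kilobase in peg/peg aortae. The line of *Slc2a6* in sg/sg aortae reaches 0 and is drawn to the lower edge of the axis.

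*Slc2a5* also varied more within groups than the other members. Its SD of log2 CPM was 1.36 in HDR wild type, larger than in 99.0% of the 16423 genes tested, and 0.76 in sg/sg aortae, larger than in 92.9%. It was 0.92 in PE2 wild type, larger than in 94.5% of genes, and 2.88 in peg/peg aortae, larger than in 99.0%. Low counts add counting noise to such values, and the median SD over all genes lay between 0.23 and 0.33. *Slc2a4* had SDs of 0.52 in HDR wild type and 0.69 in sg/sg aortae.

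The level of *Slc2a5* moved with markers of fat from library to library within groups. The 8 adipocyte markers, which include *Adipoq* and *Plin1*, were all detected in all 4 groups. *Fabp4* had the highest mean of the list in each group, from 757 CPM in sg/sg aortae to 2195 CPM in PE2 wild type. The list summed to 885 to 4591 CPM in HDR wild type, 789 to 3070 in sg/sg, 1417 to 4344 in PE2 wild type and 209.5 to 2992 in peg/peg aortae. The 8 brown fat markers, led by *Ucp1* and *Cidea*, were likewise all detected, with sums of 328 to 1501, 307.8 to 1501, 622 to 2457 and 14.4 to 1755 CPM in the same order. Levels were taken as log2 CPM and centred within the 4 groups, so that differences between genotypes did not enter.

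Over the 18 libraries *Slc2a5* followed the adipocyte sum with Pearson's r = 0.88 (permutation p = 0.00054, adjusted p = 0.00486 over 18 relations) and Spearman's rho = 0.87 (permutation p = 0.00028). It followed the brown fat sum with r = 0.91 (permutation p = 3e-05, adjusted p = 0.00054) and rho = 0.89 (permutation p = 4e-05). In the HDR libraries alone r was 0.82 for both lists (n = 10), and after adjustment over 18 relations the brown fat list passed (adjusted p = 0.0211 by permutation) and the adipocyte list did not (adjusted p = 0.0529 by permutation). In the PE2 libraries alone r was 0.91 and 0.94 (n = 8), and neither list passed (adjusted p = 0.232 and 0.0936 by permutation). Without the 2 libraries farthest from the median, r was 0.63 for the adipocyte (permutation p = 0.0112) and 0.81 for the brown fat list (permutation p = 0.00084). Without peg/peg replicate 3, r was 0.74 and 0.82.

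**Figure D5:**
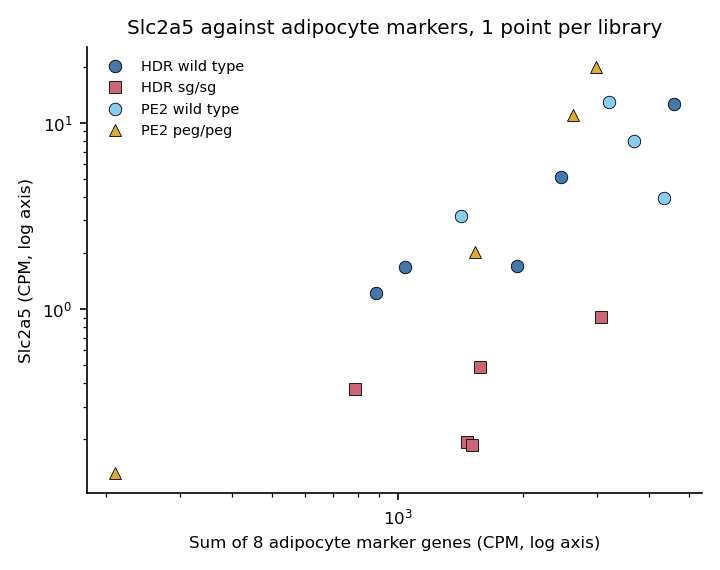
Level of *Slc2a5* (vertical log axis, CPM) against the summed level of 8 adipocyte markers (horizontal log axis, CPM), with 1 point per library and a symbol per group. The sg/sg libraries lie below the HDR wild type at like marker sums, and peg/peg replicate 3 lies at the lower left, with 0.132 CPM of *Slc2a5* and a marker sum of 209.5 CPM.

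The adipocyte sums of the HDR genotypes overlapped. The median log2 fold change in the HDR experiment was -0.48 over the adipocyte and -0.44 over the brown fat markers. The level of *Slc2a5* was also set against these sums. This scaling was added after the values had been seen. Per 1000 CPM of adipocyte markers, *Slc2a5* was at 0.887, 1.39, 1.61, 2.08 and 2.74 CPM in WT_2 to WT_6 and at 0.312, 0.132, 0.295, 0.124 and 0.472 CPM in Mut_2 to Mut_6. The lowest wild-type ratio lay above the highest sg/sg ratio, and the ratio was not constant within the wild type. The part of fat in the HDR difference was not tested. On the log2 scale the mean difference was -3.04 for the level itself, -2.79 per adipocyte sum, -2.62 per brown fat sum and -2.41 per *Slc2a4*. The same ratio in PE2 aortae ran from 0.915 to 4.04 in the wild type and from 0.629 to 6.65 in peg/peg aortae, with overlap on both sides. The PE2 mean difference on the log2 scale was -1.12 for the level itself, 0.093 per adipocyte sum, 1.00 per brown fat sum and -1.12 per *Slc2a4*, so its sign turned with the scale. Without peg/peg replicate 3 these differences were 0.34, 0.69, 0.91 and 0.56.

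Markers of other cell types were read beside these values. The 8 macrophage markers, which include *Adgre1* and *Cd68*, were all detected, with *Lyz2* at the highest mean in each group. They summed to 274 to 762 CPM in HDR wild type and 208 to 375 CPM in sg/sg aortae, 158 to 561 CPM in PE2 wild type and 297 to 904 CPM in peg/peg aortae. By edgeR, 0 of these 8 genes were called in the HDR experiment, and 6 were lower in sg/sg aortae at an unadjusted p under 0.05. The relation of *Slc2a5* with this sum within groups did not pass the test (r = -0.18, permutation p = 0.603, adjusted p = 0.775, n = 18). The 10 skeletal muscle markers summed to 7.90 to 162 CPM in HDR wild type and 12.2 to 91.3 CPM in sg/sg aortae. Their relation with *Slc2a5* (r = -0.71, permutation p = 0.0136) did not pass the adjustment (adjusted p = 0.0815), and r was -0.37 without peg/peg replicate 3. Over all 12 marker lists, with 97 genes, edgeR called 0 genes in each experiment. At an unadjusted p under 0.05 by edgeR there were 15 of 83 tested (HDR) and 12 of 89 tested (PE2). Over all genes that share was 1.98% (HDR) and 4.30% (PE2). DESeq2 called the skeletal muscle genes *Myh4* and *Atp2a1* higher in sg/sg aortae and the lymphoid gene *Rag1* lower in peg/peg aortae. Beyond the values given here, the part of these cell types in the level of *Slc2a5* was not tested.

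*Slc2a4* showed no relation over all 18 libraries with the adipocyte sum (r = 0.29, permutation p = 0.358), the brown fat sum (r = 0.15, permutation p = 0.69), the skeletal muscle sum (r = 0.07, permutation p = 0.827) or the cardiac sum (r = 0.26, permutation p = 0.493) that passed the adjustment. The first 2 values rested on peg/peg replicate 3, which had the highest *Slc2a4* and the lowest fat markers. Without it, r was 0.83 with the adipocyte and 0.89 with the brown fat sum (adjusted p = 0.00108 by permutation for both). In the HDR libraries alone, r was 0.85 and 0.87 (n = 10). The cardiac sum was mostly *Ryr2* in the wild types. This gene averaged 144 CPM in HDR and 44.0 CPM in PE2 wild type, where the sums had medians of 172 and 56.3 CPM. In peg/peg aortae *Ryr2* reached 61.9 CPM and the sum 624 CPM.

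None of the other 10 relations looked at passed the adjustment over all libraries. They paired *Slc2a1* with erythroid, Schwann cell and endothelial markers, *Slc2a3* with lymphoid, neutrophil and macrophage markers, *Slc2a6* with macrophage markers, *Slc2a10* with smooth muscle markers, and *Slc2a12* with smooth muscle and adipocyte markers. The smallest p belonged to *Slc2a6* with macrophage markers (r = 0.44, permutation p = 0.0381, adjusted p = 0.171). *Slc2a10* followed smooth muscle markers with r = 0.20 over all libraries (permutation p = 0.52) and with r = 0.78 without peg/peg replicate 3 (adjusted p = 0.0117 by permutation). *Slc2a12* with adipocyte markers gave r = -0.55 (permutation p = 0.144) and 0.01 without that library.

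The genes whose pattern was most like that of *Slc2a5* were found by Pearson's r of centred log2 CPM over 18 libraries among 14760 genes, as a description. They were *Acss2* (r = 0.96), an acetyl-CoA synthetase, the kinase gene *Sbk1* (r = 0.95), *Tkt* (r = 0.95), the transketolase of the pentose phosphate pathway, *Agpat2* (r = 0.93), an acyltransferase of triglyceride synthesis, and *Ifi27* (r = 0.93). For *Slc2a4* they were *Mrps35* (r = 0.94), *Mpzl2* (r = 0.92), *Sdsl* (r = 0.90), *Vegfb* (r = 0.89) and *Hemk1* (r = 0.88). The choice of these genes leaned on peg/peg replicate 3: without it, 1 of the 5 genes stayed among the 5 most like *Slc2a5*, and 0 among those most like *Slc2a4*.

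Genes of sugar use, of other carriers, of carrier traffic and of urate handling did not pass the test in either experiment. Of 59 genes in 10 lists, 45 were tested in HDR and 47 in PE2 aortae, and edgeR and DESeq2 each called 0 in both. At an unadjusted p under 0.05 by edgeR there were 3 lower genes in HDR and 2 higher genes in PE2 aortae. That is 6.67% and 4.26% of those tested, beside 1.98% and 4.30% of all genes. The HDR genes were 1 each among the hexokinases, the regulators of carrier traffic and the lactate carriers. The PE2 genes were 1 each among the hexokinases and the enzymes of fructose and polyols. The genes named below were chosen by abundance and not by these values. Over all tested genes of the lists the median log2 fold change was -0.09 (HDR) and -0.0058 (PE2).

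Among the hexokinases, which trap glucose as its phosphate, *Hk2* averaged 126 ± 34.9 CPM in HDR wild type and 102 ± 49.3 CPM in sg/sg aortae. *Hk1* averaged 71.8 ± 12.2 and 66.5 ± 3.88 CPM there, and the PE2 log2 fold changes of *Hk2* and *Hk1* were -0.18 ± 0.60 and 0.32 ± 0.18 (SE). Of the enzymes that make and use fructose, *Akr1b3*, the aldose reductase of the polyol pathway, averaged 69.2 ± 5.50 CPM in PE2 wild type and 97.5 ± 24.6 CPM in peg/peg aortae, and its log2 fold change of 0.49 ± 0.18 did not pass the test (adjusted p = 0.861 by edgeR). *Sord*, which turns sorbitol into fructose, had log2 fold changes of -0.10 ± 0.14 (HDR) and -0.01 ± 0.14 (PE2).

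In glycolysis, 15 of 16 genes were tested in HDR and 16 in PE2 aortae, with median log2 fold changes of -0.20 and -0.12. *Aldoa*, an aldolase, had log2 fold changes of -0.39 ± 0.24 and -0.21 ± 0.28 (SE) in the HDR and PE2 experiments, and *Pkm*, a pyruvate kinase, had -0.18 ± 0.16 and -0.09 ± 0.14. The kinases that set the level of the glycolytic activator fructose 2,6-bisphosphate, *Pfkfb3* and *Pfkfb1*, had 0.12 ± 0.38 and -0.31 ± 0.35 in the HDR experiment and -0.28 ± 0.33 and -0.80 ± 0.57 in the PE2 experiment. *Txnip*, which takes glucose carriers off the cell surface, had 0.36 ± 0.17 and 0.22 ± 0.23, and *Lnpep*, a peptidase of the insulin-responsive vesicles, had 0.19 ± 0.15 and -0.05 ± 0.20.

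Among other carriers, *Slc50a1* had log2 fold changes of 0.07 ± 0.09 and -0.17 ± 0.10 (SE) in the HDR and PE2 experiments, and the sodium-dependent inositol carrier *Slc5a3* had -0.06 ± 0.13 and -0.16 ± 0.27. *Bsg*, the partner of the lactate carriers, had -0.07 ± 0.18 and -0.27 ± 0.13, and the carrier *Slc16a7* had 0.08 ± 0.14 and -0.01 ± 0.11. Of the genes of urate handling, *Xdh*, which makes urate, had -0.02 ± 0.17 and 0.72 ± 0.37, and the urate exporter *Abcg2* had 0.17 ± 0.18 and 0.37 ± 0.31. *Slc23a2*, a vitamin C carrier, had 0.07 ± 0.08 and 0.11 ± 0.10, and its relative *Slc23a1* was too low to test. The PE2 values of these genes had adjusted p between 0.861 and 0.992 by edgeR.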

How the data were processed

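Per the methods, the authors used fastp for trimming, STAR 2.7.0f for alignment to GRCm38 with Gencode M22, featureCounts of Subread 1.6.4 for counting per gene, and DESeq2 1.22.1 for testing. They deposited raw counts per gene symbol for both experiments, without normalization. A second deposited table, of counts divided by size factors, was not used. The strand setting of the counting is not given in the sources used here, and the labels and methods name different library kits and read lengths. All per-sample columns of the count tables were used, leaving 0 unused.

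Genotypes came from labels and column names. The members and all gene lists were chosen with earlier results of these data known. Each experiment was fitted alone in edgeR 4.0.16 (R 4.3.3) with TMM normalization, filterByExpr, glmQLFit and glmQLFTest on genotype. P-values were adjusted after Benjamini and Hochberg over all genes tested, with a threshold of 0.05. Standard errors of edgeR fold changes were the size of the log fold change over the root of the test's F. They therefore carry the test statistic, for HDR members too. Intervals reached 1.96 of these errors to each side, a normal multiple that is too narrow for such small groups. Alternatives were DESeq2 1.42.0 (size factors, and the Wald test on the whole table), limma 3.58.1 (voom), other filters, each library left out and, for PE2 aortae, a block on the replicate number, a covariate for sex, and female libraries alone. The edgeR fit was tested on simulated data.

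An exact permutation test, two-sided, was used for the level of *Slc2a5* in PE2 aortae. Relations used log2(CPM + 0.1), centred within groups, with 100000 permutations within groups and adjustment over 18 relations. Python 3.11.15 with scipy 1.17.1 was used. Positions and lengths came from Gencode M21, on GRCm38 and 1 release before that of the authors. Named genes were all members, *Slc2a2*, *Slc2a7*, *Tspan2*, the 2 most abundant genes of each pathway list, called genes, the first 2 of a marker list and the 5 genes most like *Slc2a5* and *Slc2a4*. A few other marker genes were named to show which genes made up a sum. Each aorta was a separate mouse per the methods. No libraries of a group agreed within sampling noise (lowest chi-square per degree of freedom 17.2).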

Additional observations from a re-analysis of the deposited data

Results flagged for a closer look

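In 40 groups (10 members in 4 groups of libraries), Dixon's ratio set 2 libraries apart from the others of their group, as many as the 1 in 20 that chance gives. *Slc2a6* in WT_6 of the HDR wild type was at 0.634 CPM, against 0.302 to 0.378 CPM in the other 4 libraries. *Slc2a13* in WT_4 of the HDR wild type was at 35.9 CPM, against 23.1 to 26.7 CPM in the other 4. WT_6 also had the highest *Slc2a4* and *Slc2a5* of its group.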

How the results depend on the processing

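In the HDR experiment the number of genes called was 1, and 4 by DESeq2's Wald test or with no filter beyond 1 count. In the PE2 experiment it was 1, and 33 by DESeq2's Wald test and 0 with the replicate block, with sex as a covariate or in female libraries alone. With single libraries left out it was 1 in the HDR experiment throughout and 0 to 2 in the PE2 experiment. The members called in PE2 were 0 throughout, with adjusted p between 0.533 and 1.00.

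For *Slc2a5* in PE2 aorta the log2 fold change of 0.23 reversed to -1.19 by limma-voom and to -0.78 with the replicate block, and it ran from -0.69 to 0.71 over left-out libraries, while its CPM difference ran from -2.66 to 3.93. The requirement of at least 10 counts in every library removed *Slc2a5* from both experiments. *Slc2a1* reversed to -0.017 with sex as a covariate and -0.024 in female libraries, *Slc2a4* to -0.0064 by limma-voom, and *Slc2a6* to 0.015 with sex as a covariate and 0.0075 in female libraries. Over left-out libraries, *Slc2a1* ran from -0.040 to 0.20, *Slc2a4* from -0.14 to 0.34, *Slc2a6* from -0.32 to 0.14, *Slc2a9* from -0.084 to 0.27, *Slc2a12* from -0.0041 to 0.96 and *Slc2a13* from -0.20 to 0.088. The causes were not tested.

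The replicate numbers of the PE2 libraries share only a number: the correlations of same-numbered libraries were -0.05, -0.18, -0.04 and -0.25, so they do not pair the mice, and the block moved the count of called genes from 1 to 0. The HDR column names share the numbers 2 to 6, which are not those of the labels. Same-numbered HDR libraries had correlations of 0.61, 0.17, -0.18, 0.47 and 0.31, not all above 0.1, so they were not taken as pairs. A block on these numbers, added after the data were seen, gave 1 called gene and -2.98 for *Slc2a5*. Of the 18 relations with marker lists, 2 passed, 0 in PE2 libraries alone, and 2 to 5 over left-out libraries, 5 without peg/peg replicate 3. With the longest transcript in place of merged exons, the order of members per length over 18 libraries was the same, but *Slc2a5* moved to rank 10 in sg/sg and rank 6 in peg/peg aortae. *Slc2a5* in sg/sg aortae rests on 4 to 16 reads a library, which limits its precision.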
